A study of Mus musculus with 3 samples.

Results

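The genes examined were 38 splicing factors, taken by symbol from the GENCODE M21 annotation and found in the gene tables of every library, out of 55536 annotated genes. They were 11 SR proteins (Srsf1 to Srsf7 and Srsf9 to Srsf12), the SR-like genes Tra2a and Tra2b, 15 hnRNP genes, Ptbp1 and Ptbp3, the 3′ splice site genes U2af1, U2af2 and Sf3b1, the RNA-binding genes Rbm39 and Rbm5, and the kinases Clk1, Clk2 and Clk4. For each, the share of transcripts annotated as nonsense_mediated_decay (NMD) or retained_intron was set against those annotated as protein_coding. The RNA was polyadenylated RNA from primary activated regulatory T cells of 1 male mouse biosample, 9 weeks old. Its strain, Foxp3GFP-DTRCD4CreERT2R26tdTomato, carries a reporter and diphtheria toxin receptor at Foxp3, an inducible Cre recombinase driven from CD4 and a Cre-dependent tdTomato reporter. Sequencing gave 1 group of 3 libraries numbered as technical replicates of that biosample, with no resting or treated cells to compare, so the SDs and p-values below measure only the spread between libraries. In bulk RNA, fewer cells making a transcript and less of it per cell cannot be told apart.

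SR proteins bind exonic enhancers and help the spliceosome use nearby splice sites, whereas many hnRNPs and PTB proteins repress exons, and CLK kinases phosphorylate SR proteins. Many of these genes hold a poison exon, a cassette exon whose inclusion brings in a premature stop codon, and transcripts with a stop well ahead of the last exon junction are degraded by NMD. Several SR and hnRNP proteins promote such splicing of their own transcripts and so limit their own level, and poison exons of SR genes lie in some of the most conserved stretches of mammalian genomes. Transcripts that keep an intron often stay in the nucleus, as described for the Clk genes.

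The following stretches, from 7 of the exons described below, show how such an exon ends an open reading frame. Each runs from the first base of the cassette exon to the in-frame stop codon, which is in capitals, on the coding strand of mm10, and the letters come from the GENCODE M21 transcript sequences.
Srsf3-201, chr17:29039454-29039487, plus strand: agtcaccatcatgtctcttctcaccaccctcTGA
Srsf7-203, chr17:80205054-80205081, minus strand: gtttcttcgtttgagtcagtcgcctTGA
Srsf6-201, chr2:162932815-162932966, plus strand: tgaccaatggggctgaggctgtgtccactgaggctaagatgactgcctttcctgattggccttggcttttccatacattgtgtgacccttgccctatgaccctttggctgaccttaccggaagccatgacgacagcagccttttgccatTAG
Tra2b-206, chr16:22259181-22259261, minus strand: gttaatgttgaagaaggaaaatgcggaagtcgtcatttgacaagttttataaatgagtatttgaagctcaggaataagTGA
Tra2a-202, chr6:49252965-49253108, minus strand: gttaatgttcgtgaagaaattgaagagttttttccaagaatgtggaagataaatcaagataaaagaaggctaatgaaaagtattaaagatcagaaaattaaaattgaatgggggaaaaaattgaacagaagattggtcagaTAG
Rbm39-212, chr2:156178881-156178952, minus strand: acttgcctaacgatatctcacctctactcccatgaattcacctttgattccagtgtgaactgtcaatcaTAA
Sf3b1-208, chr1:55014905-55014924, minus strand: gcttctattctgctgctTGA
The kinase gene Clk1 reaches a stop by the opposite route, through loss of an exon. In Clk1-210 exon 4 of the protein_coding model Clk1-201, 91 bases at chr1:58420121-58420211 on the minus strand, is skipped, and the line gives the last 20 bases before the new junction and the bases from there to the stop.
Clk1-210: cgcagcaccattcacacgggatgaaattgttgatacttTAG

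The estimated counts of the 3 libraries summed to 20783676, 21206219 and 18496690. As a check of the labelled cell type, all 5 regulatory T cell markers, Foxp3 among them, lay between 90.1 and 734 TPM, and the 3 natural killer cell markers at 2.32 TPM or less. B cell markers were at most 6.61 TPM and myeloid markers at most 15.0 TPM. Of the CD8 T cell markers, Cd8b1 was at 17.7, 21.7 and 22.5 TPM and Cd8a at 1.46 ± 0.960 TPM, while of the erythroid markers Hbb-bs was at 293, 446 and 397 TPM. Replicate 2 stood apart in the heat shock gene Hspa1b, at 44.3 TPM against 5.63 and 4.54 TPM. Pairs of libraries differed in 27.7 to 34.0% of genes tested.

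Every one of the 38 genes reached 1 TPM in each library. Mean levels of at least 100 TPM were found for 23 of them, and the median gene stood at 158 TPM. This median lay at percentile 95.2 of 22028 protein-coding genes, whose own median was 0.810 TPM. TPM is scaled to transcript length, so levels of different genes can be set side by side. The order of members was the same by FPKM (Spearman's rho 1.00 over the 38 genes). TPM is FPKM rescaled within a library, so that is no separate check.

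By TPM, hnRNP genes held the top of the order. Hnrnpk, a poly(C)-binding protein, was at 2310, 2176 and 2301 TPM in replicates 1, 2 and 3. Hnrnpa2b1, which binds AG-rich RNA, followed at 1442, 1388 and 1402 TPM, and Hnrnpf, which binds G-tracts, at 1187, 1106 and 1169 TPM. The ranges of these 3 genes did not overlap. Hnrnpc, a poly(U)-binding protein, was at 551, 516 and 575 TPM, a range that overlapped that of Sf3b1. Hnrnpm was at 358, 341 and 365 TPM. Hnrnpab (31.7, 21.4 and 18.6 TPM) and Hnrnpd (10.4, 12.6 and 13.0 TPM), which binds AU-rich elements, were the lowest of the 15.

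Among SR proteins, Srsf5 was highest at 674, 624 and 705 TPM, ahead of Srsf7 (396, 453 and 399 TPM) and Srsf3 (390, 446 and 375 TPM), whose ranges overlapped. The founding member Srsf1 had 109, 68.5 and 63.0 TPM, and the widest SD relative to its mean of the 11 SR genes (80.0 ± 24.9 TPM, SD, n = 3). Srsf9 (11.9, 10.9 and 9.52 TPM) and Srsf12 (1.83, 1.88 and 1.84 TPM) were lowest. Tra2b was at 263 ± 27.8 TPM and its paralogue Tra2a at 41.5 ± 7.40 TPM, and their ranges did not overlap.

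Rbm39, a factor that acts with U2AF, was at 796, 841 and 785 TPM, and Sf3b1, the branch-site subunit of the U2 particle, at 535, 548 and 568 TPM. U2af1, which reads the AG at the 3′ splice site, was at 192 ± 5.63 TPM, and its partner U2af2 at 84.8 ± 3.62 TPM. Of the PTB genes, Ptbp1 was at 312, 263 and 294 TPM and Ptbp3 at 150 ± 5.18 TPM. Clk1 was at 290, 341 and 297 TPM, Clk4 at 179 ± 18.0 TPM and Clk2 at 27.3 ± 4.71 TPM. Rbm5, a regulator of apoptosis genes' splicing, was at 277 ± 17.4 TPM.

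**Figure D1:**
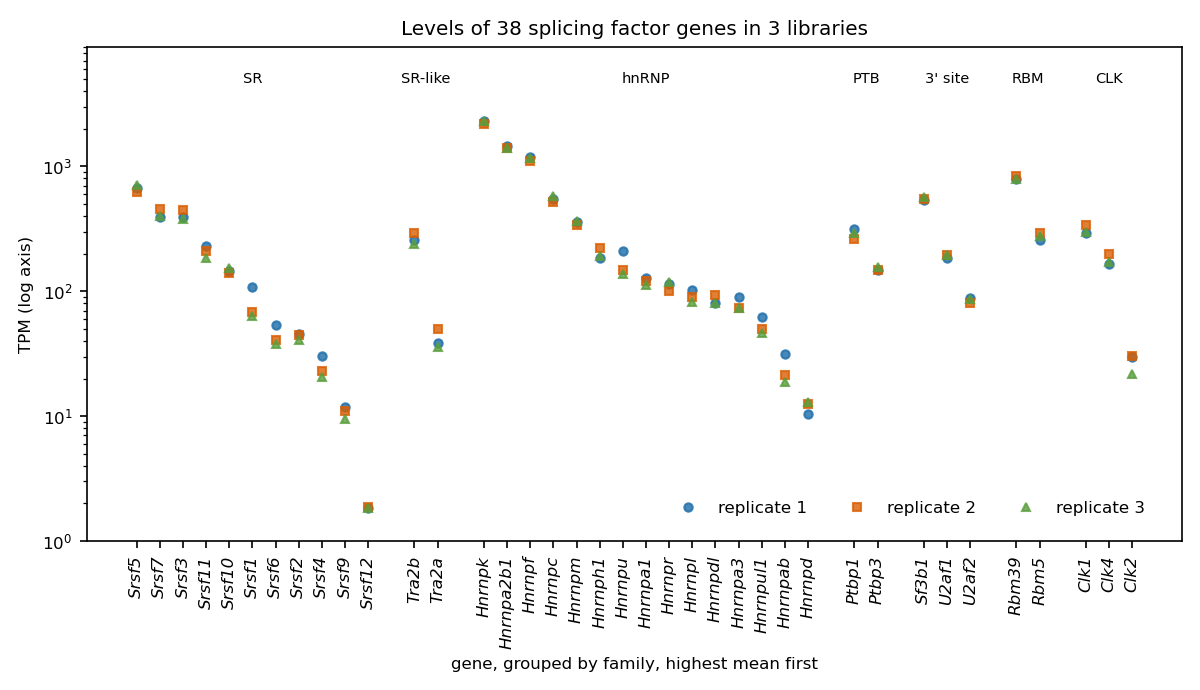
TPM (log axis) of each of the 38 genes in replicates 1, 2 and 3, grouped by family and ordered by mean within a family. Hnrnpk sits at the top (2263 TPM) and Srsf12 at the bottom (1.85 TPM), and in Srsf1, Srsf4, Srsf6 and Hnrnpab replicate 1 lies above replicates 2 and 3.

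These levels depended on which deposited table was used. The second deposited table, whole-number counts on GENCODE M4, held for Hnrnpf 0.368%, for Hnrnpa1 1.42%, for Hnrnpk 2.78% and for Srsf3 3.83% of the estimated counts of the first, against 59.7% for Clk2, and none at all for Hnrnpu. Its order of the 38 genes by CPM gave a Spearman's rho of 0.603 with the first table's CPM. The top genes changed: by CPM of the second table Sf3b1 was highest (1204), ahead of Hnrnpm (586) and Rbm39 (549). Hnrnpk had 148 CPM there and Hnrnpf 17.5 CPM. Of the 50-base windows in the highest protein_coding model, 66.8% of those of Hnrnpf, 73.1% of Hnrnpa3, 54.1% of Hnrnpa1 and 31.5% of Srsf3 also stood in transcripts of other genes, and none of those of Clk2. Hnrnpu had none of its highest model's windows shared either, and its range overlaps Cox20 on the other strand. Srsf4 shared 65.4% of its windows and had 56.8% of its estimated counts in the second table. Hnrnpa2b1 shared 2.27% and had 7.86%. The part of shared sequence in the gap between the tables was not tested, and the strand setting of neither table is given in the sources used here. Srsf2 overlaps Mettl23 and Mfsd11, and Hnrnpab overlaps Phykpl, on the opposite strand, so reads of those pairs may have been divided between them.

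Genes that act around the members were also expressed. All 10 NMD factors reached 1 TPM in every library with a median of 24.5 TPM, with Smg9 (45.6 ± 4.02 TPM) and Smg5 (40.4 ± 2.71 TPM) among the highest and the lowest levels in Upf2 (14.3 ± 1.18 TPM) and the helicase Upf1 (4.39 ± 1.29 TPM). The 5 exon junction complex genes, whose proteins mark junctions for NMD, had a median of 124 TPM, led by Eif4a3 (243 ± 2.94 TPM), Rbm8a (230 ± 8.03 TPM) and Magoh (124 ± 5.10 TPM), with Magohb (22.2, 18.5 and 19.3 TPM) and Casc3 (10.8 ± 2.07 TPM) lowest. In the list of SR kinases and SR-rich scaffolds, Srrm2 (391 ± 66.0 TPM), Srpk1 (182 ± 15.2 TPM) and Srrm1 (157 ± 3.23 TPM) were highest and Srpk2 (59.8 ± 3.69 TPM) and Dyrk1a (6.16 ± 0.318 TPM) lowest. The 30 other spliceosome genes had a median of 101 TPM, with Sf3b2 (351 ± 11.7 TPM), Snrpb (347 ± 4.32 TPM) and Sf3b6 (340 ± 5.89 TPM) highest and Ddx23 (23.0 ± 2.58 TPM) and Prpf4 (21.6 ± 1.27 TPM) lowest.

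A list of further regulators, only some of them restricted to certain tissues, was split. Mbnl1 (750 ± 29.0 TPM), Celf2 (167 ± 4.39 TPM) and Mbnl2 (57.1 ± 3.26 TPM) were highest, only 10 of the 23 genes reached 1 TPM in every library, and the neuronal genes Rbfox1 and Nova1 had no count. The upper limit set by having no count was 0.144, 0.141 and 0.162 CPM in replicates 1, 2 and 3, for counting error only. Ptbp2, the neuronal PTB gene, was at 14.6 ± 2.03 TPM.

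Most members differed in level between the libraries of this one biosample. The counts of 32 of the 38 genes differed (84.2%, Pearson's chi-square test of homogeneity, adjusted over 14641 genes), against 44.9% of all genes tested. Calls grow with count, and above a mean of 1000 counts 29 of 31 members (93.5%) and 66.6% of all genes were called. The 6 not called were Srsf2, Srsf9, Srsf12, Hnrnpd, U2af1 and U2af2. Sizes were small: the median ratio of the highest to the lowest library was 1.17 in the members and 1.22 in all genes tested. Above a mean of 1000 counts it was 1.14 in the members and 1.11 in all genes, so the order of the 2 sets turned with count.

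The 32 called members were highest in replicate 1 for 12 genes, in replicate 2 for 13 and in replicate 3 for 7. Of the 6575 genes called among all tested, 2507, 2081 and 1987 were highest in replicates 1, 2 and 3. Those were 17.1, 14.2 and 13.6% of all genes tested. Among the members highest in replicate 1, Hnrnpab was at 39.6, 28.6 and 24.0 CPM (ratio 1.65, adjusted p = 3.47e-17). Hnrnpu, a nuclear scaffold protein, was at 335, 253 and 226 CPM (ratio 1.48, adjusted p = 1.47e-101). Srsf1 was at 147, 118 and 99.9 CPM (ratio 1.47, adjusted p = 3.12e-39). Srsf4, Srsf6, Hnrnpl, Clk2 and Hnrnpul1 shared this order of libraries, with ratios of 1.48, 1.42, 1.40, 1.38 and 1.36. Genes highest in replicate 2 included Tra2a, at 61.9, 75.2 and 55.6 CPM (ratio 1.35, adjusted p = 4.24e-13), and Tra2b, at 320, 371 and 299 CPM (ratio 1.24, adjusted p = 2.15e-35). Srsf3 (ratio 1.24), Clk4 (1.23), Clk1 (1.21), Rbm39 (1.19) and Hnrnph1 were also highest there. Hspa1b and the erythroid marker Hbb-bs were highest in replicate 2 as well, and their part in these differences was not tested. The highest library was the same for all 38 members under library totals, TMM and DESeq2 scaling. By the second set of counts, 15 of 37 members were called, against 23.2% of its genes, and without replicate 2 the count in the first table was 20 of 38, against 27.7%.

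**Figure D2:**
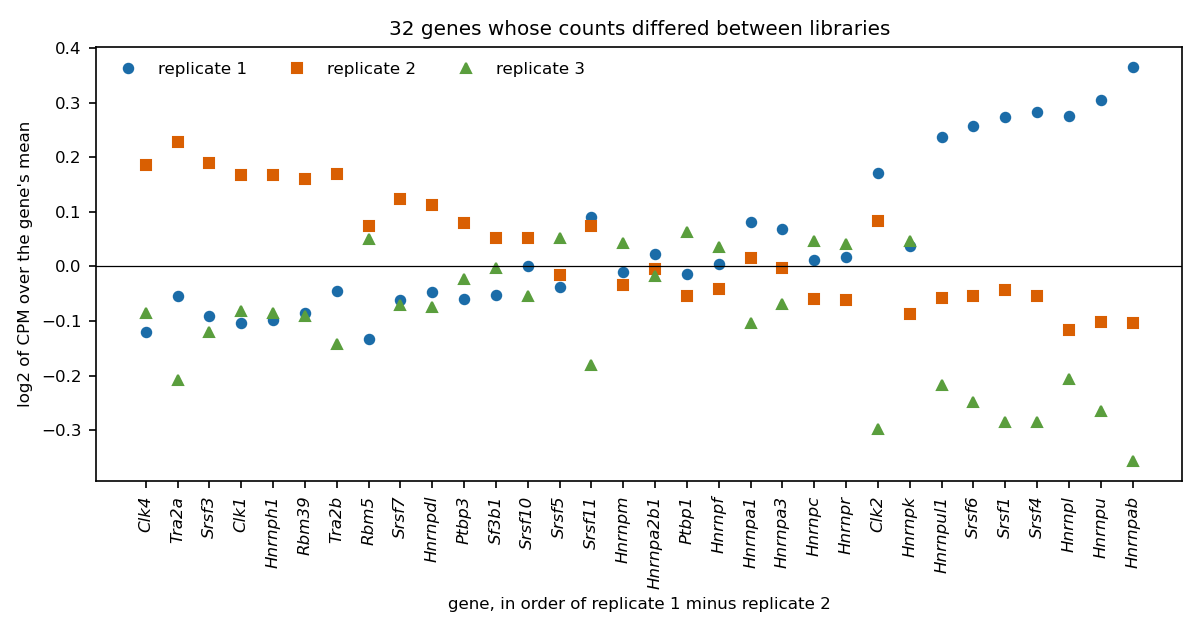
Log2 of each library's CPM over the gene's mean CPM for the 32 called members, ordered by replicate 1 minus replicate 2. Replicate 2 lies above the others at the left end (Clk4, Tra2a, Srsf3) and replicate 1 at the right end (Hnrnpl, Hnrnpu, Hnrnpab).

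Unproductive models, as NMD and retained_intron transcripts are called here, took a large part of the members' TPM. Of the 38 genes, 33 had such a model in the annotation, and their median share was 46.6% (46.9, 47.3 and 45.4% in replicates 1, 2 and 3). In 5357 other genes with such a model and 10 TPM or more the median was 16.0%. The share was over 50% in 16 members (48.5%) and in 15.1% of the other genes. NMD models alone gave a median of 15.0% in members and 0% in the others, and retained_intron models alone 14.3 and 10.7%. A gene with no annotated model of a kind counted as 0% for that kind, so these medians also reflect the annotation. Members had a median of 5 such models each and the others 3. Among genes with 4 or more models the medians were 50.8% for 23 members and 31.5% for 1895 other genes, and among genes with 1 to 3 models 15.6% for 10 members and 9.69% for 3462 other genes. TPM weights short models more than counts do: with estimated counts the medians were 33.5 and 9.28%. Without models of GENCODE support level 4, 5 or NA they were 32.3 and 10.7%.

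The families differed in this share. Rbm39 and Rbm5 had a median of 68.9%, the 3 kinases 60.4%, the 3 genes of 3′ splice site recognition 53.8%, the 9 SR genes with such models 52.1%, the Tra2 genes 44.5%, the 12 hnRNP genes 24.2% and the 2 PTB genes 11.3%. Among the other lists, genes with such models and enough expression had medians of 69.6% (2 exon junction complex genes) and 34.7% (10 SR kinases and scaffolds). The medians were 26.5% for 6 NMD factors, 17.7% for 8 genes of the list with tissue-restricted regulators and 10.6% for 26 other spliceosome genes. The differences between lists are descriptions. Srsf10, Srsf12, Hnrnpab, Hnrnpf and Hnrnph1 had no NMD or retained_intron model, but 72.5% of the TPM of Hnrnph1 and 47.9% of that of Srsf10 lay in models typed processed_transcript, which enter neither class. At the low end Hnrnpc had 0.292% and Srsf9 0%, although Srsf9 has an NMD model in the annotation.

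**Figure D3:**
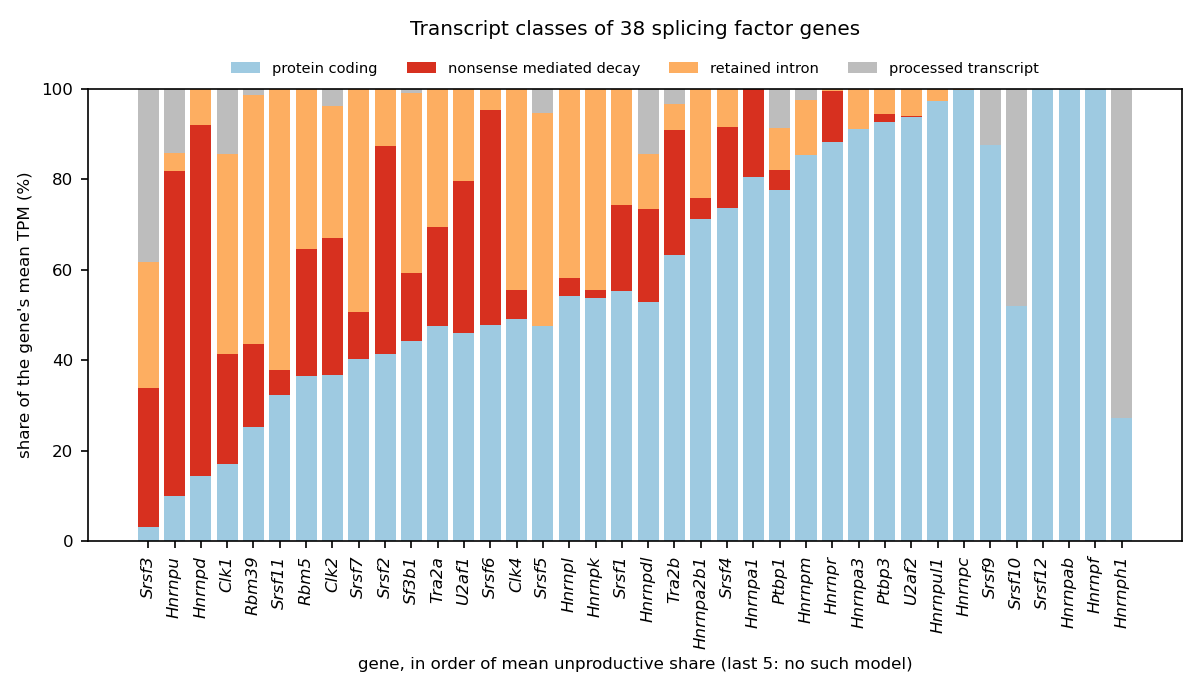
Share of each gene's mean TPM (percent) in protein_coding, NMD, retained_intron and processed_transcript models, ordered by the unproductive share. Srsf3, Hnrnpu and Hnrnpd stand at the left with the smallest protein_coding parts, and retained_intron models exceed NMD models in Rbm39, Srsf11, Srsf7 and Srsf5.

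The 65 NMD models of 29 members were sorted by how they reach their stop codon. In 22 models of 11 genes the stop lay inside a cassette exon that no protein_coding model overlaps. These took 45.6 ± 3.30% (SD, n = 3) of the NMD TPM of the members, 497, 475 and 524 TPM in the 3 libraries. Models that skip an exon common to the coding models took 17.5 ± 1.42%. Models that keep the stop of a protein_coding model but carry junctions after it took 12.6 ± 2.03%, and the rest 24.3 ± 0.977%. The 12.6% includes Srsf6-201 (20.9 TPM), because the coding model Srsf6-202 (0.117 TPM) shares its stop, so the 45.6% leaves it out. In 44 of the 45 models with a mean of 1 TPM or more, the stop was more than 50 bases ahead of the last junction. The models were taken by their annotated NMD type, so this count describes the annotation and not decay in these cells.

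The 13 stop-containing cassette exons carried by a model at 1 TPM or more came from 9 genes and ran from 51 to 460 bases. Lengths of 6 were multiples of 3 and of 7 were not. The stop came 16 to 141 bases after the exon start. GC content was below the median of coding internal exons of like length in 12 of the 13.

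Srsf3, which binds CU-rich RNA, has such an exon of 456 bases at chr17:29039454-29039909 (exon 4 of Srsf3-201, whose stop is shown above). Srsf3-201 was at 118, 133 and 122 TPM, or 30.2, 29.8 and 32.6% of the gene. The only protein_coding model, Srsf3-202, was at 15.8, 11.3 and 9.64 TPM. Models typed processed_transcript, which enter neither class, were at 154, 168 and 141 TPM, or 39.6, 37.6 and 37.7% of the gene. With these left out of the denominator, the unproductive share was 93.3, 95.9 and 95.9%, the highest of all members. Part of the gene has a copy elsewhere: 14.4% of the windows of Srsf3-202 also stood in the processed pseudogene Gm9761, which was listed at 159, 167 and 149 TPM. With the TPM of pseudogenes that share windows counted as productive, an alternative chosen after seeing the data, the share of Srsf3 was 58.0 ± 2.17%. That alternative puts all of this TPM on the coding side. Yet the NMD model Srsf3-201 shared 29.9% of its windows with other genes, and Srsf3-202 31.5%. Whether reads given to Gm9761 came from Srsf3 was not tested.

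Srsf7 carries the longest of these exons, 460 bases, with its stop after 25 bases, and its model Srsf7-203 was at 47.6, 39.2 and 42.8 TPM, 10.5 ± 1.71% of the gene. Its retained_intron models were far higher, Srsf7-207 at 109, 135 and 110 TPM, and the whole unproductive share was 57.8, 58.5 and 63.1%. These models have no assigned support level, and the share was 0% when such models were left out. In Srsf6 the model Srsf6-201 was at 26.5, 17.6 and 18.6 TPM, beside 20.9 ± 3.98 TPM for the coding Srsf6-203, and the unproductive share was 53.3, 48.2 and 54.8%. Its 268-base exon counted as a cassette exon only against coding models at 1 TPM or more, because the short coding model Srsf6-202 (0.117 TPM) overlaps it and shares its stop, and the share was 9.04% without models of low support.

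The Tra2 genes had the poison exons with the most unusual base content. The Tra2a exon (306 bases, chr6:49252803-49253108) and the Tra2b exon (276 bases, chr16:22258986-22259261) held 10.5 and 10.1 GAA triplets per 100 bases on the coding strand, the core of the sequence that Tra2 proteins bind. Of 7368 and 10918 coding internal exons within 20% of their lengths, 4 each held GAA as densely or more so, and the pool medians were 1.98 and 2.03 per 100 bases. The reverse complement TTC stood at 0.654 and 0 per 100 bases. Their GC content was 30.1 and 32.6%, against pool medians of 53.7 and 53.4%. The other 11 stop-containing exons lay between percentiles 9.38 and 84.1 of their pools for GAA. GAA occurs in most exons of this length, and these counts describe letters, not binding.

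Tra2b-206 was at 68.7 ± 5.55 TPM and Tra2a-202 at 9.08 ± 1.94 TPM. Models with the exon made 31.2, 22.4 and 30.6% of Tra2b and 23.7, 14.2 and 30.5% of Tra2a. In both genes replicate 2 had the lowest share of the exon and the highest protein_coding level: 153, 201 and 144 TPM in Tra2b and 15.7, 29.4 and 14.0 TPM in Tra2a. The coding model Tra2b-201 shared 43.9% of its windows with other genes and the NMD model Tra2b-206 35.2%, and Tra2a none. Without models of support level 4, 5 or NA the unproductive share of Tra2a was 83.4 ± 15.7%, against 54.0 ± 11.1% with all models.

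Rbm39 carried several poison exons. Its 73-base exon, at chr2:156178880-156178952 and with the stop shown above, was in 4 NMD models that together had 107, 100 and 108 TPM, 13.1 ± 1.02% of the gene. Exons of 155 and 55 bases were in models that made 3.36 ± 0.211 and 2.29 ± 0.460%. The larger part of its unproductive share (76.9, 70.3 and 76.4%) came from retained_intron models, of which Rbm39-205 had 190, 181 and 178 TPM. Sf3b1-208, with a 56-base exon, was at 71.8, 72.3 and 102 TPM, or 14.9 ± 2.70% of Sf3b1, and has support level 5. The unproductive share of Sf3b1 was 55.6, 53.9 and 56.3%. By estimated counts in place of TPM, the shares were 33.5 ± 0.852% in Sf3b1 and 49.1 ± 4.49% in Rbm39.

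**Figure D4:**
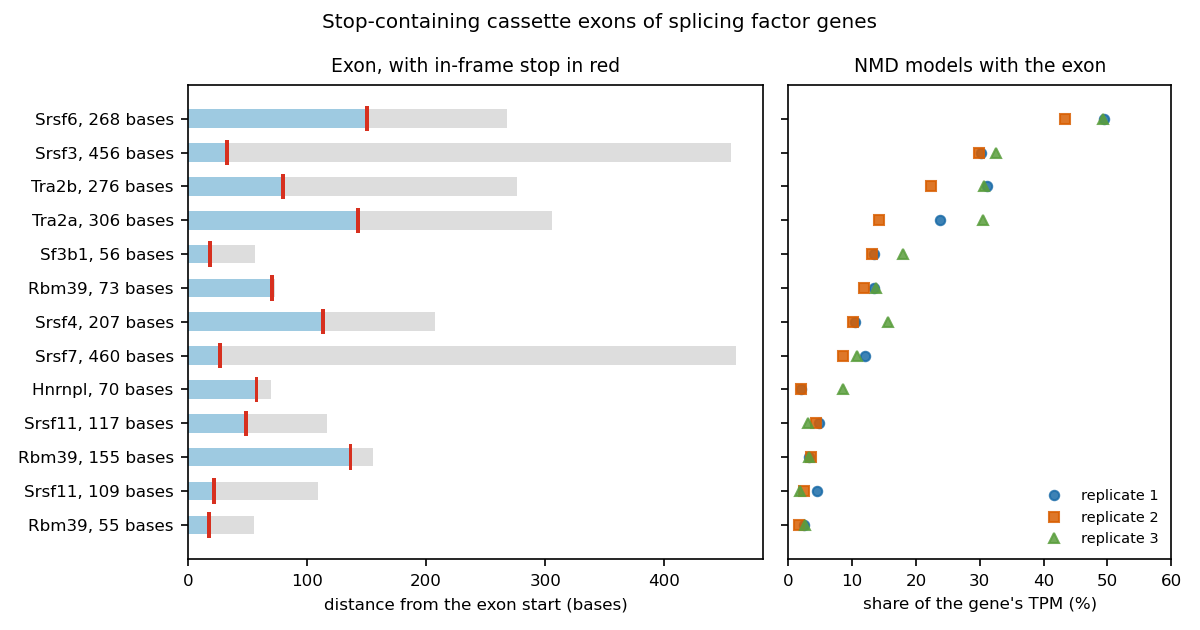
Left, stop-containing cassette exons (12 of the 13, without a 51-base exon of Rbm39 at 0.129% of the gene, and the exon of Srsf6) drawn to scale in bases from the exon start, with bases before the stop in blue, the stop in red and bases after it in grey. Right, the share of the gene's TPM (percent) in NMD models with that exon in each library, highest in Srsf6 (47.4%), Srsf3 (30.9%) and Tra2b (28.1%), with replicate 2 below the others in Tra2a and Tra2b.

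Several poison exons also lay inside unspliced stretches of other models. A retained_intron model ran through 5 of the 13 exons, in 5 genes. In Sf3b1, intron 4 (1813 bases in Sf3b1-201) holds the 56-base exon, and Sf3b1-203, which retains it, was at 209, 210 and 199 TPM against 71.8, 72.3 and 102 TPM for the exon. In Srsf7 the exon lies in intron 3 (874 bases), retained by 2 models with 138, 162 and 148 TPM together. In Srsf3 intron 3 (2150 bases) is kept in Srsf3-204, at 34.9, 49.0 and 35.7 TPM. Rbm39-205 runs through the 73-base exon in intron 2 of Rbm39-201 (1791 bases) without holding the whole intron. Srsf11-213, at 25.6, 23.3 and 24.7 TPM, runs through the 117-base exon in intron 2 of Srsf11-202 (3774 bases). No retained_intron model ran through the exons of Tra2a and Tra2b, whose host introns have 11322 and 10623 bases. Reads that lie wholly inside such an exon fit both kinds of model, so the 2 levels are not independent.

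In the kinases retained_intron models carried much of the share, 51.6 ± 0.200% in Clk1, 44.4 ± 1.15% in Clk4 and 30.3 ± 2.25% in Clk2, beside 28.6, 6.40 and 30.1% from NMD models. The main NMD models of Clk1 and Clk2 skip exons. Clk1-210, which skips exon 4, was at 73.2, 85.2 and 67.2 TPM, above the only coding model Clk1-201 at 47.1, 56.7 and 53.5 TPM. Clk1-204, which keeps 3 introns of Clk1-201 between the third and the sixth, was at 63.1, 75.8 and 62.9 TPM. The unproductive share of Clk1 was 81.2, 80.7 and 78.6%, and that of Clk4 50.7, 51.0 and 50.8%. Clk2 had 63.9, 72.0 and 45.4% (60.4 ± 13.7%), the widest SD of all members. Both Clk1 and Clk4 had their highest gene level in replicate 2 with shares that moved by a few points at most. In Ptbp1, where retained_intron models made 10.3 ± 2.28% and NMD models 5.01 ± 1.69%, the NMD models Ptbp1-207 (18.1, 0 and 4.56 TPM) and Ptbp1-201 (0, 12.5 and 4.56 TPM) each lack 1 exon. Each was listed at 0 in the library where the other was highest, and the unproductive share of Ptbp1 was 17.2, 17.4 and 11.3% by TPM and 7.90 ± 1.97% by estimated counts.

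In another set the stop codon was the usual one, or lay near the end, and exons after it made the model an NMD type. Hnrnpu-206 was at 116, 73.6 and 71.6 TPM, 52.4 ± 2.64% of Hnrnpu, against 19.6, 15.9 and 14.0 TPM for the coding Hnrnpu-201. Its stop lies in exon 14 of 17, 183 bases ahead of the last junction. The share of Hnrnpu was 89.6, 86.7 and 88.0% by TPM but 66.8 ± 2.67% by estimated counts, since Hnrnpu-201 is 7640 bases long and Hnrnpu-209, another NMD model, 351 bases. Hnrnpa1-203 (21.2, 25.2 and 22.4 TPM) and Hnrnpa2b1-209 (95.5, 33.7 and 68.6 TPM) share their stop with a coding model and have 90 and 157 bases from it to the last junction. Srsf2-204 does the same at 22.5, 20.1 and 16.5 TPM, beside 17.9 TPM in each library for the coding Srsf2-201, and the share of Srsf2 was 60.6, 59.5 and 55.4%. In Hnrnpd the share was 75.7, 83.1 and 95.9%, and its highest NMD models Hnrnpd-208 (6.42 TPM) and Hnrnpd-204 (1.82 TPM) are incomplete.

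Models typed retained_intron carried all or much of the share in other members. Srsf5 had a share of 50.1 ± 8.61%, highest in replicate 2, nearly all from Srsf5-212, which keeps intron 5 of Srsf5-201 (1229 bases) and was at 276, 336 and 306 TPM. That model has support level 5, and the share was 2.53% without models of low support. Srsf11 had 72.0, 61.7 and 69.4%, with 4 retained_intron models above 20 TPM, Srsf11-218 the highest at 41.9, 27.7 and 34.7 TPM. Srsf11-218, Srsf11-208 and Srsf11-203 hold no whole intron of the coding Srsf11-202. Rbm5 had 61.9, 68.3 and 59.7%, with 35.3 ± 3.77% from retained_intron and 28.0 ± 2.70% from NMD models. Its retained_intron model Rbm5-219 was at 37.7, 41.3 and 42.9 TPM and its NMD models Rbm5-211 and Rbm5-210 at 39.5 ± 6.22 and 32.4 ± 1.16 TPM. Hnrnpk-217 and Hnrnpk-215 were at 426 and 399 TPM, above the highest coding model Hnrnpk-224 at 301 TPM, and they are 874 and 522 bases long. Of the introns of Hnrnpk-224, Hnrnpk-217 holds 1 whole, of 78 bases, and Hnrnpk-215 none. The share of Hnrnpk was 28.1 ± 1.16% by estimated counts. In U2af1 the NMD model U2af1-208, at 59.6, 60.2 and 73.0 TPM, gave more than the retained_intron models. Of the windows of U2af1-208, 62.6% also stood in transcripts of other genes. The share of U2af1 was 50.2, 50.3 and 60.9%, and 0% without models of low or unassigned support.

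The unproductive share was next compared between libraries, on rounded estimated counts. It differed in 26 of 32 members tested, against 50.8% of 5773 genes (Pearson's chi-square test, adjusted over those genes). With 4 or more unproductive models, 21 of 23 members and 1147 of 1873 other genes at 10 TPM or more were called. With 1 to 3 such models, 5 of 9 members and 1338 of 2894 other genes were called. The chi-square test takes assignment of reads to transcripts as known. When the deposited posterior SDs of the counts were added to the counting error, in a test chosen after seeing the data, 6 of the 32 members remained, against 4.04% of the 5773 genes. They were Srsf1, Srsf5, Srsf11, Tra2a, Tra2b and Hnrnpu. The 5773 genes were not matched to the members in level or number of models. The added error takes the models of a gene as independent, although they divide reads, so a lost call does not show equal shares.

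Among these 6, Srsf5 had unproductive count shares of 59.0, 73.2 and 61.2% (adjusted p = 0.00136 with posterior error), with replicate 2 highest. In Srsf11 they were 65.3, 54.7 and 63.7% (adjusted p = 0.00157), with replicate 2 lowest. Tra2a had 71.9, 55.4 and 72.1% (adjusted p = 0.0236) and Tra2b 30.7, 25.4 and 33.5% (adjusted p = 0.00650), both lowest in replicate 2, where both genes had their highest level. Srsf1, at 17.9, 10.3 and 12.6% (adjusted p = 0.0146), and Hnrnpu, at 69.6, 64.3 and 66.6% (adjusted p = 0.00137), were highest in replicate 1, as were their gene levels. Hspa1b was 44.3 TPM in replicate 2, and its part in these differences was not tested.

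The other 20 called members lost their call when posterior error was added. Their TPM shares not yet given were 34.8, 52.3 and 52.7% in Hnrnpl, 46.9, 47.3 and 44.9% in Hnrnpk and 32.6, 44.4 and 36.7% in Hnrnpdl. They were 29.7, 29.1 and 27.5% in Hnrnpa2b1, 23.8, 28.6 and 27.8% in Srsf4, and 17.0, 21.7 and 20.2% in Hnrnpa1. Low shares were 11.3, 14.4 and 12.1% in Hnrnpm, 9.73, 8.67 and 16.5% in Hnrnpr and 4.64, 9.31 and 5.05% in U2af2. By estimated counts the means were 23.5% in Hnrnpdl, 4.62% in Hnrnpm and 3.90% in Hnrnpr. For Hnrnpl, whose share was lowest in replicate 1, the adjusted p was 1.01e-25 on counts and 0.326 with posterior error. For Rbm39 it was 8.08e-49 and 0.144, and for Clk2 1.52e-18 and 0.351.

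**Figure D5:**
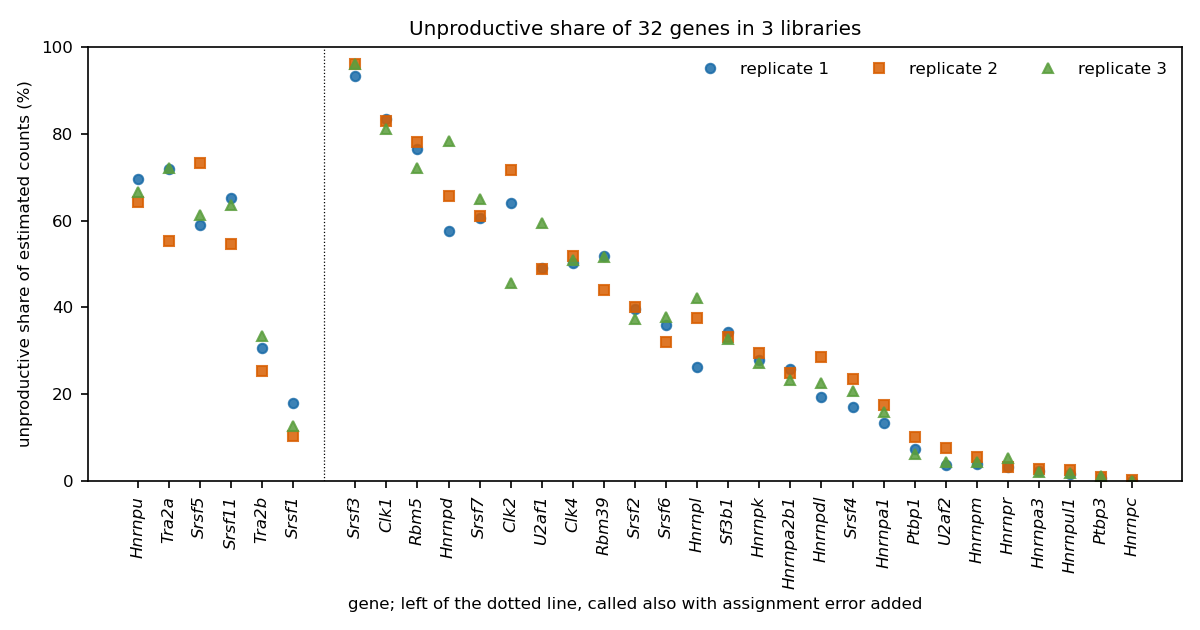
Unproductive share of estimated counts (percent) of the 32 members tested, in each library, with the 6 genes still called after posterior error was added at the left of the dotted line. Replicate 2 is lowest in Tra2a (55.4%), Srsf11 (54.7%) and Tra2b (25.4%) and highest in Srsf5 (73.2%).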

How the data were processed

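Polyadenylated RNA-seq of 3 libraries from 1 biosample was analysed. Per the labels, reads were placed on mm10. The authors' gene and transcript tables, on GENCODE M21 per the notes deposited with them, hold estimated counts (expected counts) that divide shared reads, and the deposited TPM, FPKM and posterior SDs of counts come with them. Effective lengths were 49 under full lengths in the deposited tables. A second deposited table holds whole-number counts on GENCODE M4. Aligner, quantifier version and strandedness: not given in the sources used here.

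Symbols and transcript types came from GENCODE M21, which named all 55536 genes and 141862 transcripts. Rows that name no gene stayed out of totals and tests; phiX took 0.182 to 0.262% of counts. The share is TPM in NMD and retained_intron models over those plus protein_coding models. Estimated counts were rounded, and libraries were compared with Pearson's chi-square test against library totals (summed count at least 30) or between classes (30 or more in each), with Benjamini-Hochberg adjustment over all genes tested at 0.05. These tests compare reads of libraries, not conditions. On simulated counts for 14641 genes the gene test recovered 66.0% of 1.25-fold and 96.0% of 1.5-fold changes. On 5773 genes the share test recovered 38.0 and 76.0% of such changes in odds. In each test 200 genes, drawn from those with higher counts, were changed in replicate 1 alone, with counting error only. Genes with low counts and the error of dividing reads among models are not covered. The posterior-error test treats the errors of all models of a gene as independent, within a class and between the classes. Models that divide the same reads break this, so the error it adds may be too large or too small.

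A cassette exon is an internal exon of an NMD model that overlaps no exon of a protein_coding model. Exons compared for triplets were coding internal exons within 20% of the length. A partner gene held 10% or more of the 50-base windows of a gene's highest protein_coding model. Named were the 12 highest and 4 lowest genes, the 10 highest shares, every gene whose share differed, the top models, and of each other list the 3 highest and 2 lowest genes; others named were chosen after their values were seen. One gene that this rule names is not reported here. The members and lists were chosen with earlier results of these data known. Alternatives are given in the closing section. Software was Python 3.11.15 with scipy 1.17.1, pandas 2.3.3, numpy 2.4.6 and matplotlib 3.10.9, R 4.3.3, edgeR 4.0.16 (TMM) and DESeq2 1.42.0 (size factors).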

Additional observations from a re-analysis of the deposited data

How the results depend on the processing

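The percentile of the median member among protein-coding genes, 95.2 by TPM, was 94.9 to 95.4 with a replicate left out and 85.2 by CPM of the second table. It was 95.2 by FPKM too, but TPM is FPKM rescaled within a library, so that is no separate check. The median unproductive share of 46.6% was 33.5% with estimated counts, 15.0% for NMD and 14.3% for retained_intron models alone, 32.3% without support levels 4, 5 and NA, and 45.9 to 50.9% with a replicate left out; with all transcripts in the denominator it was 46.6%. Members whose counts differed were 32 under TMM, DESeq2 size factors, other count filters and the deviance statistic, 15 with the second table, and 20 to 28 with a replicate left out (20 without replicate 2). Members whose share differed were 22 to 26 under other filters, the deviance statistic and single classes, 17 to 20 with a replicate left out (17 without replicate 2), and 6 with posterior error. Cassette exons were found in 33 NMD models, and in 35 when only coding models at 1 TPM or more counted. Apart from effects of fewer libraries, the cause of these changes was not tested. No paired analysis was possible because there is 1 group. At this depth 3 counts are 0.141 to 0.162 CPM.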
